A study of Saccharomyces cerevisiae with 21 samples.

Results

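The small subunit of the cytosolic ribosome in budding yeast is encoded by 56 genes whose symbols run from RPS0A to RPS31, and these were the members followed here, chosen by symbol (RPS, a number and an optional copy letter) from 5767 genes listed in every library. They encode 32 proteins. 24 of these proteins come from 2 gene copies, called A and B, and 8 come from 1 gene (RPS2, RPS3, RPS12, RPS13, RPS15, RPS20 and RPS31 among them). Ribosome footprints, the stretches of mRNA that a ribosome shields from nuclease, were counted per gene in 19 libraries of the laboratory strain BY4741 (MATa his3Δ1 leu2Δ0 met15Δ0 ura3Δ0), which the labels give as wild-type. In the first experiment, cells in synthetic complete medium with glucose (log phase, n = 2) were compared with cells moved for 15 min to the same medium without glucose (n = 2), and both had cycloheximide, which holds ribosomes in place, added 1 min before harvest. In the second, a time course in the same media without that pretreatment held log phase, 1 min, 5 min and 15 min of starvation (n = 2 each), 10 min, 20 min and 30 min (n = 1 each), and 1 matched 15 min library that was pretreated by the authors' key, although it belongs to a pool whose label gives no pretreatment. In the third, cells grew in the rich medium YPD to log phase, for 1 day to the postdiauxic shift, or for 5 days to stationary phase, without pretreatment (n = 1 each). The libraries of the first experiment, called pretreated below, were made by another method (28 nt footprints, polyadenylated) than all others, and rRNA was removed from them except from 15 min replicate 2. Library method and experiment therefore cannot be told apart, and pretreatment varied within 1 experiment only through the single matched library at 15 min. The paper speculates that log phase cells harvested without pretreatment were briefly stressed by the loss of their glucose medium. By that account log phase without pretreatment is not an unstressed baseline for the changes below, which was not tested here.

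The small subunit binds the mRNA, finds the start codon and checks each codon against its tRNA, while the large subunit joins the amino acids. Its proteins surround the ribosomal RNA: some line the channel where mRNA enters, some the channel where it exits, some reach the decoding centre, and others build the beak, head, body and platform. In growing yeast the genes of both subunits are among the most heavily translated of the cell, they are transcribed together under nutrient signalling through TORC1 and protein kinase A, and their output falls when glucose or nitrogen runs out. Most of the genes kept both copies of an ancient genome duplication, and the proteins of a pair are often identical although the DNA is not, which limits how a short footprint can be assigned to 1 copy.

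The RPS6, RPS26 and RPS27 pairs are printed because the results below turn on how far their copies can be told apart. Capitals mark the bases that differ between the copies, and each stretch is given 5' to 3' in the coding direction from the RefSeq copy of the R64 assembly. RPS6A (chrXVI:377842-377991, minus strand) and RPS6B (chrII:592263-592412, minus strand) differ at 6 of 711 coding bases, and coding bases 11 to 160 shown hold 3 of them. RPS26A (chrVII:148229-148378, minus strand) and RPS26B (chrV:424162-424311, plus strand) differ at 28 of 360 bases, of which 18 lie in the last 150 bases shown. RPS27A (chrXI:158967-159212, plus strand) and RPS27B (chrVIII:147871-148116, minus strand) differ at 39 of 249 bases, spread over the second exon shown, which holds all of the coding sequence after the start codon.
RPS6A: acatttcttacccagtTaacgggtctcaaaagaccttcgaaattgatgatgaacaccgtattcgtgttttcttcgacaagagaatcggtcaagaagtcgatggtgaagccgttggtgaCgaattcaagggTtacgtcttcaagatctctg
RPS6B: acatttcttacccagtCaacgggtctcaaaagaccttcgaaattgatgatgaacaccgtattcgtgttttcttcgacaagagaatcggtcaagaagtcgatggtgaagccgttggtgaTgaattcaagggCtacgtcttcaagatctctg
RPS26A: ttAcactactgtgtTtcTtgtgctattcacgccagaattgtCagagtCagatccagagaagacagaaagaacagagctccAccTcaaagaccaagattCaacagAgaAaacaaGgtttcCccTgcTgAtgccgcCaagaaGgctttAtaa
RPS26B: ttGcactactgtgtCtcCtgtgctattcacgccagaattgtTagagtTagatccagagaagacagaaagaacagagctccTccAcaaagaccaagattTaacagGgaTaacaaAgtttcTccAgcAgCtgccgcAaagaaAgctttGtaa
RPS27A: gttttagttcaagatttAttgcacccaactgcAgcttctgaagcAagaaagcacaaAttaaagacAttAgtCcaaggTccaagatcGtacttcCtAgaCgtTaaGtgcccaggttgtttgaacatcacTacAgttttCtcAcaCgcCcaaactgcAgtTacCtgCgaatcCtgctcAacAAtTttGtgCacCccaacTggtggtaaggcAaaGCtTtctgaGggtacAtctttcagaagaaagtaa
RPS27B: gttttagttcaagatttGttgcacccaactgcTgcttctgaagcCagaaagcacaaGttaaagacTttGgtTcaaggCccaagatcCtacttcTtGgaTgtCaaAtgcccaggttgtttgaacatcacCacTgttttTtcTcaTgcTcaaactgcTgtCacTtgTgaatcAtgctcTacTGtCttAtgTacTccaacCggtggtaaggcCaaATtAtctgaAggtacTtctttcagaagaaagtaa
The 28-base windows within the coding exons of each copy were looked up in the whole genome, on both strands. Of these windows, 18.1% of RPS6A occurred nowhere else, against 92.2% of RPS26A and 100% of RPS27A. RPS6 was the pair hardest to separate, and RPS4 (15 of 786 bases differ, 36.0% of windows unique) was also among the least distinct. RPS27, RPS25 (96.7%) and RPS22 (96.4% for the A copy and 96.2% for the B copy) were the easiest. The sources used here do not say what was done with reads that fit both copies.

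The pretreated libraries held 1862525 to 5170260 counted reads and the YPD libraries 169545 to 652361. In the time course the replicate 1 libraries of log phase, 1 min, 5 min and 15 min and the matched library held 3523240 to 7896332 reads, whereas the replicate 2 libraries and the single 10 min, 20 min and 30 min libraries held 71816 to 135958, so a member such as RPS29A had 1599 reads in log phase replicate 1 and 45 in replicate 2. Every member had at least 1 read in every library. Values below are CPM (the reads of a gene scaled to a total of 1000000 counted reads in its library) unless read counts are named, so each is a share of the footprints of that library. Fewer ribosomes per mRNA and less mRNA cannot be told apart in them. Nothing in the labels says that the replicates were separate cultures, so p-values measure the spread between these libraries only.

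Small-subunit genes together took 7.92% and 7.99% of the footprints in the 2 pretreated log phase libraries and 3.82% and 2.58% after 15 min without glucose, which left 40.2% of the log phase share. The 2 starved libraries differed from each other more than the 2 log phase libraries did, and both lay below them. Without pretreatment the shares were 7.40% and 6.68% in log phase, 5.68% and 5.47% at 1 min, 4.80% and 4.42% at 5 min, and 4.94% and 4.28% at 15 min. Log phase did not overlap with any starved time point there, while the 5 min and 15 min libraries overlapped. The share that remained was 79.1% at 1 min, 65.4% at 5 min and 65.5% at 15 min. With 2 libraries against 2, an exact two-sided permutation test cannot go below p = 0.333, which was its value for each of these 4 comparisons. The single libraries held 5.08% at 10 min (exact 95% interval 4.92 to 5.24, counting error only), 5.06% at 20 min (4.91 to 5.22), 4.29% at 30 min (4.14 to 4.44) and 4.93% in the matched pretreated library (4.92 to 4.95). Genes of the large subunit (76 genes) moved alongside, with 10.2% and 10.5% of footprints in pretreated log phase against 5.29% and 3.74% at 15 min.

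**Figure D1:**
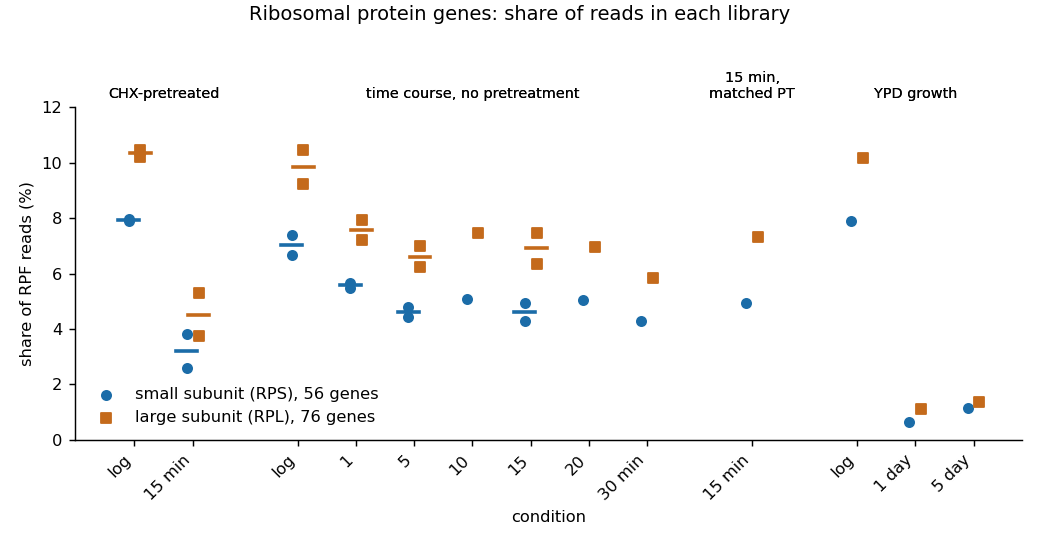
Share of counted footprints on the 56 small-subunit genes and the 76 large-subunit genes in each of the 19 libraries, in percent, 1 point a library, by condition, with a line at the mean where there are 2 libraries. The small-subunit share was 7.92% and 7.99% in pretreated log phase, 3.82% and 2.58% after 15 min without glucose, and 0.652% after 1 day in YPD.

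After 15 min without glucose in the pretreated experiment, 17 of the 56 genes fell and none rose (edgeR quasi-likelihood test, Benjamini-Hochberg adjusted p under 0.05), where 4.93% of the 5090 genes tested were called lower. The median log2 change of the members was -1.39 and that of all genes tested was -0.00. 54 of the 56 had a change below 0, and 44 were lower at an unadjusted p under 0.05. For counts at an unadjusted p or by DESeq2, here and below, no share over all genes is given. They are therefore not read against a background. When the replicate number was added as a term to the fit, 52 fell against 14.8% of all genes. The 17 calls depended on single libraries: 3 were left without 15 min replicate 2, 13 without log phase replicate 1, 21 without log phase replicate 2 and 43 without 15 min replicate 1.

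The 16 genes of the beak and head held 7 of the calls, with a median log2 change of -1.50. RPS10A, a head protein next to the mRNA entry, had 957 and 1073 CPM in log phase and 172 and 256 CPM at 15 min. Its groups were far apart, and it fell by 2.26 on the log2 scale (SE 0.28, adjusted p = 0.0086), the smallest adjusted p of any member. RPS10B fell by 1.83 and RPS29A, a small zinc-binding head protein, fell by 1.88. Both copies of RPS18, which meets the large subunit at the head, fell, RPS18A by 1.93 (1268 and 1360 CPM against 381 and 293 CPM) and RPS18B by 1.91.

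The 21 genes of the body and platform held 8 calls, with a median of -1.42. RPS6, whose carboxyl end is phosphorylated when growth signalling is active, had low values with separate groups: RPS6A was at 355 and 448 CPM against 125 and 144 CPM (log2 change -1.57), and RPS6B at 339 and 380 CPM against 102 and 105 CPM (-1.78, SE 0.24, adjusted p = 0.012). RPS7A fell by 1.91, RPS24A by 1.70, RPS24B by 1.96 and RPS27B by 1.90.

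The 11 genes of the mRNA exit channel held 2 calls (median -1.39), and both were copies of RPS28. RPS28B had 542 and 619 CPM in log phase and 132 and 67.1 CPM at 15 min, a change of -2.48 (SE 0.45, adjusted p = 0.023), and RPS28A had 1052 and 925 CPM against 394 and 358 CPM, a change of -1.39. No member of the decoding centre (4 genes, median -1.22) or of the mRNA entry (4 genes, median -0.87) passed in edgeR (2 and 1 at an unadjusted p under 0.05, 2 and 1 called by DESeq2), although 4 of 4 in each of these groups did with the replicate number as a term. The groups were not tested against each other.

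The exceptions were RPS26A and RPS9A. RPS26A, whose protein contacts the mRNA just upstream of the start codon, had 2015 and 1446 CPM in log phase and 1935 and 1556 CPM at 15 min, so its groups overlapped and the log2 change was 0.02 (SE 0.40, adjusted p = 0.98). RPS9A, the minor copy of a protein involved in decoding accuracy, had 174 and 277 CPM against 280 and 170 CPM, also overlapping, with a change of 0.07 (SE 0.38, adjusted p = 0.91). Their partners had lower values at 15 min, -0.99 for RPS26B and -1.19 for RPS9B, which did not pass in edgeR without the replicate number.

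Genes without a second copy leave less doubt about where a read belongs (88.7% of the windows of RPS31 were unique, and 100% of those of the others named here), and none of the 8 passed in edgeR, with a median log2 change of -1.24 (5 at an unadjusted p under 0.05, 5 called by DESeq2). RPS20 had 2025 and 1955 CPM against 855 and 489.7 CPM (-1.51, SE 0.44, adjusted p = 0.071), and RPS12 of the beak 2666 and 2754 CPM against 1165 and 690.5 CPM (-1.49, adjusted p = 0.072). The starved libraries were lower than both log phase libraries for each of these genes, but replicate 2 lay well under replicate 1. RPS31, made as a fusion to ubiquitin, had 3242 and 3888 CPM against 1603 and 1326 CPM (-1.25, adjusted p = 0.073), RPS3 of the entry channel 3634 and 4404 CPM against 1842 and 1491 CPM (-1.23, adjusted p = 0.079), and RPS15 of the decoding centre 2964 and 2636 CPM against 1656 and 678 CPM (-1.19, adjusted p = 0.19). RPS13 of the body had 2565 and 3021 CPM against 1677 and 957 CPM (-1.02, adjusted p = 0.17), and RPS2 of the entry channel, the least changed of the 8, 3757 and 3366 CPM against 2221 and 1562 CPM (-0.88, adjusted p = 0.20). Their groups did not overlap either, and with the replicate number as a term the 8 genes passed, at adjusted p of 0.010 for RPS20 to 0.044 for RPS13.

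In the time course the members' values were already lower after 1 min, with a median log2 change of -0.44, and none passed in edgeR, where 0% of the 5255 genes tested were called. 23 members were lower at an unadjusted p under 0.05, DESeq2 called 7, and the fit with the replicate number called 29 against 2.93% of all genes. The lowest value was that of RPS29A, with 454 and 476 CPM in log phase and 110 and 57.3 CPM at 1 min (-2.31, SE 0.37, adjusted p = 0.052). RPS28A followed with 482 and 349 CPM against 198 and 123 CPM (-1.33), and RPS30B, a short protein at the entry channel, with 506 and 423 CPM against 216 and 139 CPM (-1.33). All 3 encode very short proteins, and their log phase and 1 min values did not overlap. In replicate 2, however, log phase and 1 min rest on few reads. These were 45 and 7 for RPS29A, 33 and 15 for RPS28A, and 40 and 17 for RPS30B. RPS2 (765 coding nt) stood at the other end with 3454 and 3732 CPM against 3545 and 3919 CPM (0.05), and its groups overlapped.

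The change at 1 min followed the length of the gene. Over the 56 members Pearson's r between coding length and log2 change was 0.78 and Spearman's rho 0.84. The 10 members under 300 coding nt had a median change of -1.03, and the 10 of 700 nt and over had -0.13. At 5 min the relation was weaker (r = 0.54, rho = 0.51) and at 15 min it was weak (r = 0.13, rho = 0.23), while the change from 5 min to 15 min ran the other way (r = -0.64, rho = -0.66). In the pretreated experiment r was 0.11 and rho 0.12 at 15 min. The 76 large-subunit genes gave the same order, with r of 0.60 at 1 min, 0.53 at 5 min and -0.04 at 15 min. These are descriptions across genes that share the same libraries, and the time points share their log phase libraries.

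**Figure D2:**
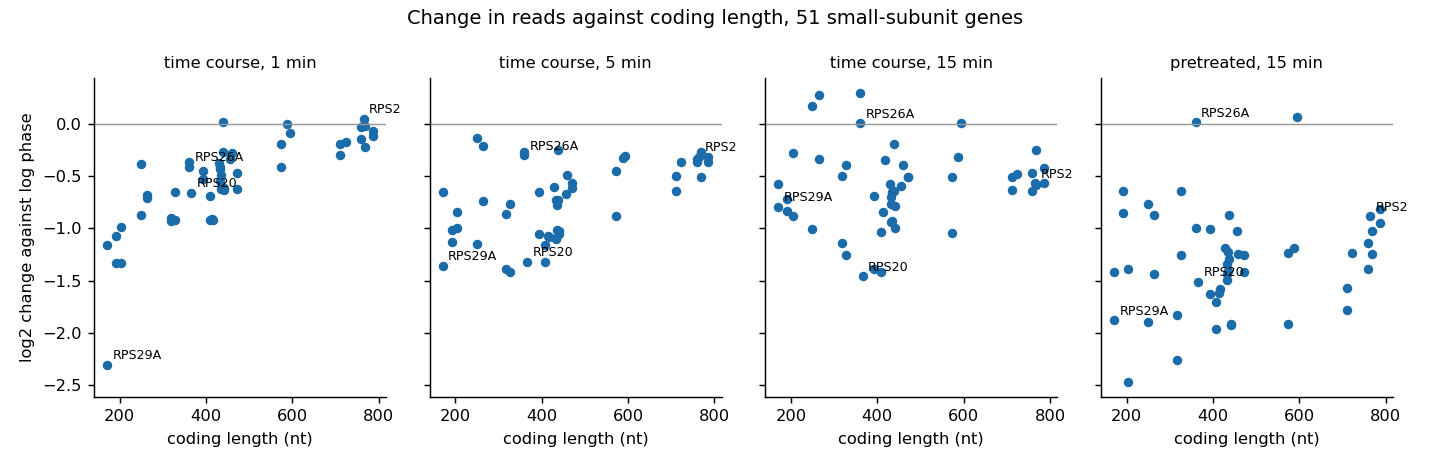
Log2 change from log phase at 1 min, 5 min and 15 min of the time course and at 15 min of the pretreated experiment (y axis, 1 panel each) against coding length in nucleotides (x axis), 1 point for each gene described here. The shortest genes lie lowest at 1 min (r = 0.78 over the 56 members), and little of the slope is left at 15 min (r = 0.13).

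RPS29A showed the course most plainly: it went from 454 and 476 CPM in log phase to 110 and 57.3 CPM at 1 min, 224 and 110 CPM at 5 min and 272 and 249 CPM at 15 min. Its values were lowest at 1 min and partly higher again later, although replicate 2 rests on 45, 7, 15 and 24 reads at these times. RPS20 went the other way, with 1600 and 2125 CPM in log phase, 908 and 1473 CPM at 1 min, 615 and 890 CPM at 5 min and 555 and 819 CPM at 15 min, lower at each later time in both replicates. Between 1 min and 5 min no member passed in edgeR (8 lower and 1 higher at an unadjusted p under 0.05, 0 in DESeq2). With the replicate number as a term 5 fell (RPS20, RPS16A, RPS16B, RPS22A and RPS7A) against 0.133% of all genes, and 2 rose (RPS29A by 1.00 and RPS29B by 0.62) against 0.266%. Between 5 min and 15 min no member passed in edgeR (0 lower and 1 higher at an unadjusted p under 0.05, 0 in DESeq2), and RPS14B alone rose, by 0.65, with the replicate number as a term, against 0.59% of all genes called higher.

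At 5 min the median log2 change from log phase was -0.70 and all 56 members lay below 0. None passed in edgeR, where 0% of all genes were called. 36 were lower at an unadjusted p under 0.05, DESeq2 called 21, and the fit with the replicate number called 42 against 3.98% of all genes. Leaving out 15 min replicate 2 gave 15 calls, leaving out 15 min replicate 1 gave 13 and 1 min replicate 1 gave 7, since all 8 libraries share 1 estimate of the spread. RPS25A, a head protein, had 1011 and 1057 CPM in log phase against 407 and 353 CPM (-1.42, SE 0.26, adjusted p = 0.071), and RPS10A 622 and 708 CPM against 287 and 199 CPM (-1.39, adjusted p = 0.071). Both were well separated from log phase by their raw values.

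At 15 min of the time course 3 members fell, where 0.114% of all genes (6 of 5255) were called lower, so these 3 were among the 6. RPS20 had 1600 and 2125 CPM in log phase and 555 and 819 CPM at 15 min (-1.46, SE 0.25, adjusted p = 0.043). RPS22A, a body protein, had 1379 and 1300 CPM against 547 and 446 CPM (-1.39, SE 0.21, adjusted p = 0.043), and RPS7A 1792 and 1713 CPM against 871 and 808 CPM (-1.04, SE 0.18, adjusted p = 0.043). For each gene the starved libraries lay below both log phase libraries with a clear gap. The median of the members was -0.58, 38 were lower at an unadjusted p under 0.05, DESeq2 called 20, and the fit with the replicate number called 41 against 3.88% of all genes. Without log phase replicate 1 or replicate 2 no call was left, and without 15 min replicate 2 there was 1.

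A few members had changes at or above 0 at 15 min. RPS26A had 1139 and 1237 CPM in log phase against 1306 and 1026 CPM (0.01), RPS26B 549.5 and 465 CPM against 680.5 and 549.3 CPM (0.30), and RPS27A 422 and 349 CPM against 516 and 321 CPM (0.18). Their groups overlapped, and none passed. RPS9A was again near 0, with 416 and 381 CPM against 437 and 342 CPM (0.01). RPS26A and RPS9A thus stood apart from most members in both experiments, which do not share libraries.

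The single libraries of the time course carried no test. RPS20 was at 1225 CPM at 10 min, 985 at 20 min and 809 at 30 min, and RPS22A at 724, 712 and 452 CPM, so both stayed below their log phase values. The matched pretreated 15 min library gave 517 CPM for RPS20, 604 for RPS22A and 891 for RPS7A, beside 555 and 819 CPM, 547 and 446 CPM, and 871 and 808.5 CPM in the 2 libraries without pretreatment. It lay outside the range of those 2 libraries for each of these genes and nearer to replicate 1, the deeper of them.

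The size of the 15 min change was compared between the experiments by an interaction term. No member passed (edgeR, 0% of 5377 genes called higher), 17 had a less negative change in the time course at an unadjusted p under 0.05, and DESeq2 called 0. The median difference in log2 change was 0.80. With the replicate number as a term 8 members passed against 1.25% of all genes. Among them were RPS28B (1.73, adjusted p = 0.036), RPS26B (1.34, adjusted p = 0.020), RPS10A, RPS10B, RPS29A and RPS6B, each with the less negative or higher change in the time course.

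When the reads of both copies were summed, so that their assignment within a pair no longer mattered, 10 of the 32 proteins fell in the pretreated experiment (5.03% of all rows called lower). They included RPS10 (-2.06, adjusted p = 0.013), RPS6 (-1.68), RPS18 (-1.93), RPS28 (-1.71), RPS7 (-1.68), RPS24 (-1.80), RPS27 (-1.48) and RPS29 (-1.63). With the replicate number as a term 31 fell (16.9%), and RPS26 was the one that did not. Without log phase replicate 1 or without 15 min replicate 2 the count was 2, and without 15 min replicate 1 it was 29. In the time course at 15 min 3 proteins fell, RPS20 (-1.47), RPS22 (-1.27) and RPS24 (-1.17), against 0.0962% of rows, and 28 fell with the replicate number as a term (3.58%). All 32 sums had a change below 0 in the pretreated experiment, and in the time course RPS26 was again the exception, at 0.08.

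Copies of a pair did not always change together. In the pretreated experiment the ratio of A reads to B reads was tested over the 57 small- and large-subunit pairs with over 25 reads on each copy in every library, and 26.3% of them changed. Of the 24 small-subunit pairs, 4 shifted towards the A copy and 2 towards the B copy, a count near the share over all 57 pairs. RPS26 had ratios of 1.99 and 1.95 in log phase and 3.91 and 4.10 at 15 min, 2 tight groups that did not overlap (log2 change 1.02, SE 0.13, adjusted p = 0.0020). RPS27 went from 0.378 and 0.465 to 0.946 and 0.841 (1.09, SE 0.20, adjusted p = 0.013), so the minor copy came close to its partner. RPS9 went from 0.0731 and 0.113 to 0.220 and 0.221 (1.28, adjusted p = 0.0099), and RPS28 from 1.94 and 1.50 to 2.98 and 5.31 (1.22, adjusted p = 0.045). The other direction was taken by RPS25, from 2.50 and 2.65 to 1.60 and 1.85 (-0.58, adjusted p = 0.038), and RPS7, from 2.04 and 2.48 to 1.28 and 1.58 (-0.66, adjusted p = 0.038). None of the 6 pairs overlapped between log phase and starvation. In a single simulated data set of this design, fitted without the trend in the spread, 16.7% of the calls of this test were false. That share rests on few calls and does not measure an error rate, so calls near the threshold are read with caution. Without either log phase library no pair of the 24 passed.

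In the time course 17 small-subunit pairs could be tested at 15 min, and 25.6% of all 43 pairs changed. RPS27 had ratios of 0.544 and 0.563 in log phase and 1.32 and 1.15 at 15 min (1.15, SE 0.25, adjusted p = 0.0005), from below 1 to above it. RPS25 had 2.03 and 2.48 against 1.26 and 1.15 (-0.90, SE 0.23, adjusted p = 0.0033), and RPS7 2.68 and 3.35 against 1.83 and 2.49 (-0.49, adjusted p = 0.049). These 3 pairs changed in the same direction as with pretreatment, in libraries that the 2 experiments do not share. RPS23 (0.48) and RPS1 (0.33) shifted towards A and RPS14 (-0.53) towards B, each at an adjusted p of 0.049. Only 4 pairs had over 100 reads on each copy, among them none of RPS27, RPS25 and RPS7, and no pair passed there. Without 15 min replicate 2, 1 pair passed in each direction.

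RPS26 did not pass in the time course, where its ratio was 2.07 and 2.64 in log phase and 1.92 and 1.86 at 15 min (-0.31, SE 0.19, adjusted p = 0.21). A test of the difference between the experiments, added after these ratios were seen, gave -1.33 for RPS26 (SE 0.20, adjusted p = 0.0011) and -0.98 for RPS9 (SE 0.27, adjusted p = 0.048), where 9.09% of the 44 pairs tested differed. RPS26 passed with the replicate number as a term and RPS9 did not. The matched pretreated library of the time course had an RPS26 ratio of 2.07, next to the untreated 1.92 and far from 3.91 and 4.10.

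**Figure D3:**
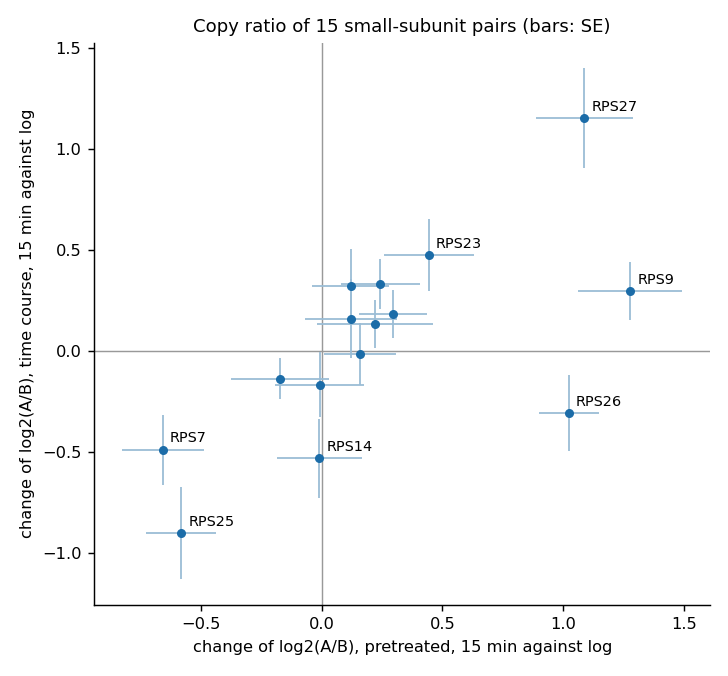
Change of the log2 ratio of A-copy to B-copy reads after 15 min without glucose in the pretreated experiment (x axis) and in the time course (y axis), 1 point for each pair described here that was tested in both, with bars for the SE. RPS27 lies at 1.09 and 1.15, RPS25 at -0.58 and -0.90, and RPS26, at 1.02 on the x axis, lies below 0 on the y axis.

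The level of the pairs that are hard to separate differed between library sets. Reads per coding length (TPM) summed over a pair were divided by the median TPM of the 8 single-copy genes of the same library. For RPS6 this ratio was 0.165 and 0.186 in pretreated log phase and 0.114 in YPD log phase, but 1.03 and 1.08 in log phase of the time course. RPS4 gave 0.362 and 0.278, then 0.372, and 1.33 and 1.66. RPS27, whose copies never match over 28 bases, gave 1.52 and 1.11, 1.91, and 0.963 and 0.876. Among these 3 pairs, RPS6 and RPS4 had low values in the pretreated and YPD libraries, and RPS27 did not. The cause was not tested, and levels of RPS6 and RPS4 are not comparable between the sets. The 2 copies of RPS14 differed between the sets as well. RPS14A outnumbered RPS14B 8.37 and 7.69 to 1 in pretreated log phase, 6.62 to 1 in YPD log phase, and 2.30 and 2.03 to 1 in log phase of the time course.

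RPS21A was uneven as well. It had 1591 and 613 reads in pretreated log phase (372 and 119 CPM) but 45 and 2 reads in log phase of the time course (12.8 and 21.1 CPM), while RPS21B had 3677 and 4690 reads and 2729 and 58 reads. In YPD log phase RPS21A had 117 reads (179 CPM) and RPS21B 762 reads. 91.1% of the windows of RPS21A are unique.

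**Figure D4:**
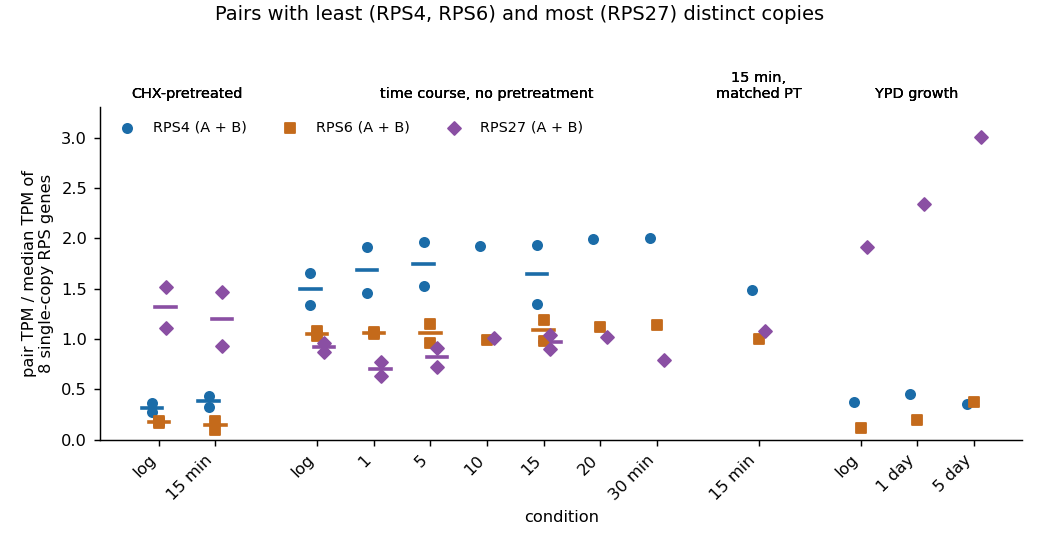
Summed TPM of the RPS4, RPS6 and RPS27 pairs divided by the median TPM of the 8 single-copy genes (y axis), 1 point for each of the 19 libraries by condition, with a line at the mean where there are 2. RPS6 lies at 0.165 and 0.186 in pretreated log phase and at 1.03 and 1.08 in log phase of the time course.

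The deposited polarity score of a gene runs from -1, with all footprints at its start, to 1, with all at its end. Members with an intron in the coding sequence (36 genes) had a median score of 0.34 and 0.31 in the pretreated log phase libraries, and the 20 without one had -0.12 and -0.08. The score expected from even coverage of the exons, when positions are counted over the whole gene with its intron, ranked the members much as the deposited score did, with Spearman's rho between 0.70 and 0.95 over the 19 libraries (29 to 56 genes each). Most of these introns lie near the start of the gene. Levels of the score are therefore not comparable between members with and without an intron, and only changes within a gene are read below.

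**Figure D5:**
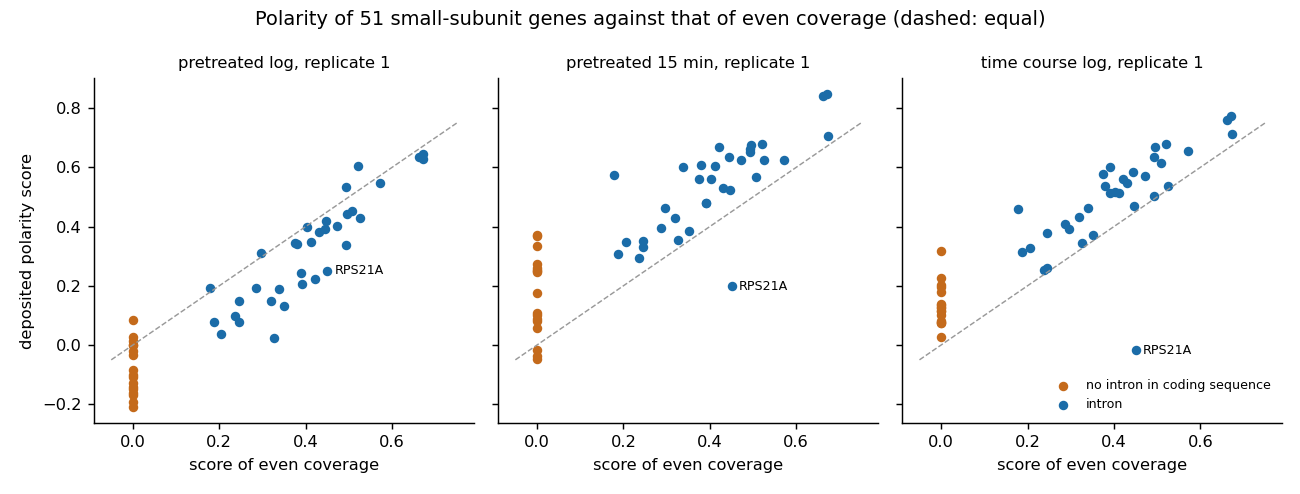
Deposited polarity score (y axis) against the score of even coverage (x axis) for the genes described here in 3 libraries, replicate 1 of pretreated log phase, pretreated 15 min and time course log phase, with genes that have an intron in a colour of their own. The dashed line marks equal scores, and RPS21A, which is named in the plot, lies below it in each of the 3 libraries.

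After 15 min without glucose in the pretreated experiment the score of 21 of the 56 members rose (limma, adjusted p under 0.05) and that of none fell, in a test where 41.5% of the 3979 genes tested rose. The median change was 0.17 for the members and 0.19 for all genes, so their count and median were near the background. With the replicate number as a term 34 rose against 56.1% of all genes, and RPS10A fell by 0.12. RPS2 went from -0.15 and -0.14 to 0.11 and 0.27 (0.33, SE 0.06, adjusted p = 0.012) and RPS7A from 0.04 and 0.09 to 0.35 and 0.35 (0.28, SE 0.05, adjusted p = 0.012). Their starved scores lay above both log phase scores. RPS0B, at the exit channel, went from 0.08 and 0.07 to 0.35 and 0.34 (0.27, adjusted p = 0.012), and RPS3 from -0.14 and -0.20 to 0.08 and 0.08 (0.25, adjusted p = 0.013). 6 of the 8 single-copy genes and 8 of the 10 members of 700 coding nt and over rose, against 1 of the 10 members under 300 nt (RPS28B). The groups were not tested against each other, and their introns differ. Even-coverage scores of members with an intron ran from 0.45 (RPS21A) to 0.67 (RPS27B) under 300 nt. At 700 nt and over they ran from 0.24 (RPS4A) to 0.35 (RPS6A), so the counts are not read as an effect of length.

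Starved replicate 2 stood apart for a group of members. RPS10A scored 0.24 and 0.36 in log phase, 0.48 in starved replicate 1 and -0.13 in starved replicate 2. RPS11A scored 0.19 and 0.10, then 0.60 and -0.04, and RPS31 scored 0.08 and -0.04, then 0.37 and -0.10. The 2 starved libraries lay on either side of log phase for these genes, and this is the library without rRNA removal, whose part in the result was not tested. Without it 46 members rose, without starved replicate 1 the count was 21 with 6 lower, and without either log phase library it was 0.

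Of the members, 46 had over 25 reads in all 8 time course libraries. At 1 min the score of 8 of them rose against 7.17% of the 488 genes tested, and the median change was 0.11 for the members and 0.09 for all genes. RPS31 went from 0.07 and 0.02 to 0.37 and 0.28 (0.28, SE 0.04, adjusted p = 0.016) and RPS26A from 0.08 and 0.01 to 0.36 and 0.27 (0.27, SE 0.04, adjusted p = 0.020), both clear of log phase in each replicate. The others included RPS7A (0.18), RPS24A (0.16) and RPS1B (0.15). With the replicate number as a term 28 rose against 35.2% of all genes. The count was 2 with a limit of over 10 reads or without the trend in the spread, and 0 without log phase replicate 2 or 1 min replicate 1.

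At 5 min 4 members rose (RPS31 and RPS1B among them) against 4.3% of all genes, and 17 did with the replicate number as a term against 36.3%. No member passed without the trend in the spread or with a limit of over 10 reads. At 15 min none rose in limma, where 0% of all genes did. These changes start from median log phase scores that were already above those of pretreated log phase, so their sizes are not compared between the experiments. 8 were higher at an unadjusted p under 0.05, and 7 rose with the replicate number as a term against 23% of all genes, among them RPS2 (0.15). RPS26A went back to 0.08 and 0.09 at 5 min, and its change from 1 min to 5 min, -0.23, was the only one to pass between starved times with the replicate number as a term. RPS31 likewise went from 0.37 and 0.28 at 1 min to 0.25 and 0.27 at 5 min and 0.11 and 0.15 at 15 min. Its scores at 15 min were still above both log phase scores.

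Over days in YPD, with 1 library a condition and so no test, 55 of the 56 members were at least 4-fold lower after 1 day than in log phase, where 17.2% of 1504 genes with at least 100 reads in either library were. The median log2 ratio of the members, on a scale of CPM plus 1, was -3.71, and that of all these genes was -0.10. The small-subunit share of footprints went from 7.90% (exact 95% interval 7.83 to 7.96) to 0.652% (0.631 to 0.673). RPS20 had the lowest ratio, from 1555 reads in log phase to 44 after 1 day (2384 to 76.4 CPM, -4.95), followed by RPS16B (805 to 30 reads, -4.54), RPS18A (961 to 38 reads, -4.46) and RPS22A (1483 to 63 reads, -4.36). Among the single-copy genes RPS31 had -4.11, RPS13 -3.70, RPS12 -3.68, RPS15 -3.63, RPS3 -3.45 and RPS2 -3.25, so that RPS20 was lowest and RPS2 highest of the 8, as in the pretreated experiment. The smallest decreases were those of RPS9A (163 to 35 reads, -2.02), RPS27A (459 to 76 reads, -2.41) and RPS28B (345 to 44 reads, -2.78).

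RPS22B was the exception, with 301 reads in log phase and 258 after 1 day (461 and 448 CPM, -0.04), while RPS22A, which encodes nearly the same protein, was 20.6-fold lower. RPS22B lies on chromosome XII from exon 1 (856442 to 856574) to exon 2 (857058 to 857317) on the plus strand, and its intron holds the small nucleolar RNA gene SNR44 (856710 to 856920), the only annotated gene on the same strand within a member's span. Its polarity score went from 0.22 in log phase to -0.07 after 1 day and -0.00 after 5 days. Whether reads of SNR44 were counted for RPS22B was not tested.

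After 5 days 49 of the 56 members were at least 4-fold lower, where 38.4% of 1172 genes were, and the median was -2.89 against -1.58. The share of footprints was 1.13% (1.08 to 1.19), so it lay above that at 1 day in single libraries. RPS21A had 117 reads in log phase and 1 after 5 days (-4.71), RPS22A 1483 and 19 (-4.33) and RPS29A 620 and 9 (-4.14), and these low counts leave the ratios imprecise. At the top were RPS22B (119 reads, 0.60), RPS6B (140 to 27 reads, -0.43), RPS11A (840 to 78 reads, -1.48) and RPS30A (417 to 33 reads, -1.71). Of the large-subunit genes, 67 of 71 with enough reads were at least 4-fold lower at each day, with medians of -3.84 and -3.11.

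Other genes of the pathway were counted beside the members in the pretreated experiment. Of the 76 large-subunit genes 28 fell there, where 4.93% of all genes tested were called lower. Their median log2 change was -1.35, close to the -1.39 of the small subunit. In the time course at 15 min 2 fell, against 0.114% of all genes, with a median of -0.52. Of 18 factors that assemble the small subunit, 5 fell and none rose, with a median of -0.56: the rRNA methyltransferases DIM1 (-1.61, adjusted p = 0.018) and EMG1 (-1.54), the processing factor KRR1 (-1.46), TSR2 (-1.27), which is the chaperone of RPS26, and the kinase RIO2 (-1.08). In the time course at 15 min none of the 18 fell, by edgeR, by DESeq2 or at an unadjusted p under 0.05, and their median was 0.11. None of 6 tested regulators of ribosomal protein genes (of 7 listed) passed in edgeR or DESeq2 (1 higher at an unadjusted p under 0.05), with a median of 0.07, and neither did ASC1, a small-subunit scaffold protein (-0.73, adjusted p = 0.20), nor STM1, which holds idle ribosomes together (-0.60, adjusted p = 0.35).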

How the data were processed

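Ribosome footprints of 19 libraries were analysed from a table of deposited counts (reads per gene), gene lengths and polarity scores. RNA-seq and glucose readdition samples were not analysed here. Per the study's methods, the authors trimmed adapters with cutadapt, kept reads of at least 17 nt, set aside noncoding RNA, mapped the rest by Bowtie to R64-1-1, collapsed PCR duplicates by molecular identifier and counted reads per gene with HTSeq. The sources used here name no version for these tools. For the pretreated libraries trimming and alignment followed an earlier protocol. The deposited score is the authors' polarity score per gene, and the deposited length, of another kind than either, was used only as a check.

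Genes were grouped by symbol and placed with the RefSeq annotation of R64 (5762 of 5767 matched). The members, the lists and the rule for named genes (smallest p, largest change and farthest to the other side of the members' median among those with at least 100 reads in every library of a fit, the single-copy genes, pairs by ratio or by how distinct their copies are, and the lowest and highest ratios in YPD) were chosen with earlier results of these data known. Counts were tested with edgeR 4.0.16 (TMM, filterByExpr, quasi-likelihood) in R 4.3.3, on the 4 pretreated libraries or the 8 replicated time course libraries. Polarity scores of genes with over 25 reads in every library of a fit, and log2 ratios of A to B reads (0.5 added to each), were tested with limma 3.58.1. YPD libraries were compared by their ratio of CPM plus 1, with no test. P-values were adjusted by Benjamini-Hochberg over all rows tested, with a threshold of 0.05. Alternatives were DESeq2 1.42.0, library size scaling, no filter, other read minimums (10 or 100), no trend in the spread, a replicate block and leaving out each library. Values of members beyond the rule, such as RPS29A, RPS22A, RPS18A, RPS28A, RPS30B, RPS11A and RPS21A, were chosen for printing after they were seen. Values of a few members are not reported here, although counts and medians over the members include them. The pairing behind the block comes from the replicate numbers and from the methods, which divide a culture between log phase and starvation. For log2 CPM of genes with over 25 reads in every library of a fit, the difference between replicate 2 and replicate 1 was correlated between conditions. The correlation was 0.449 in the pretreated experiment (3979 genes) and 0.883 to 0.923 in the 6 pairs of time points (488 genes). For 15 min of the time course, the authors' key takes replicate 1 from pool 2 and replicate 2 from pool 1, and the numbers were kept.

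The tests were checked on simulated data with known changes. The share of false calls was 16.7% (pretreated design) and 9.09% (time course design) for the copy ratio test, and 6.94% for edgeR in the time course design. Each share comes from a single simulated data set and few calls. The copy ratio was fitted there without the trend in the spread. These shares therefore cannot show whether the threshold is exceeded in general.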

Additional observations from a re-analysis of the deposited data

Results flagged for a closer look

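The 15 min change of the RPS26 copy ratio differed between the experiments in a test of the difference itself (-1.33 on the log2 scale, SE 0.20, limma adjusted p = 0.0011). The ratio of RPS26A to RPS26B went from 1.99 and 1.95 to 3.91 and 4.10 with pretreatment, and from 2.07 and 2.64 to 1.92 and 1.86 in the time course. The matched pretreated library of the time course, at 2.07, lay with the time course. The RPS9 copy ratio differed in the same test (-0.98, SE 0.27, adjusted p = 0.048), but not with the replicate number as a term (adjusted p = 0.10), where RPS26 still passed. It went from 0.0731 and 0.113 to 0.220 and 0.221 with pretreatment and from 0.184 and 0.219 to 0.246 and 0.247 in the time course, higher at 15 min in both. Library method and experiment cannot be told apart, the matched library is a single one, and this test was added after the ratios were seen.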

How the results depend on the processing

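Of 822 values of single genes or pairs under the alternatives, 624 kept their direction and their side of the threshold, 137 no longer passed, 37 newly passed and 24 changed sign. Counts of members called with the replicate block were 52 lower in the pretreated experiment, 29 at 1 min, 42 at 5 min and 41 at 15 min, 5 lower and 2 higher from 1 min to 5 min, 1 higher from 5 min to 15 min, and 8 in the difference between experiments. Summed proteins gave 31, 19, 27 and 28 with the block (pretreated, 1 min, 5 min and 15 min), polarity gave 34, 28, 17 and 7, with 1 lower from 1 min to 5 min, and copy ratios gave 4 lower with pretreatment and 1 lower in the difference between experiments. DESeq2 called 42, 7, 21 and 20 members lower in these 4 comparisons and library size scaling 40, 1, 15 and 7. Shares over all genes are not given for DESeq2, for library size scaling or for counts at an unadjusted p. Such counts are therefore not read against a background. Without the filter 1 was called at 1 min and 4 at 5 min. Over 100 reads left 1 copy ratio lower with pretreatment, 0 lower and 0 higher in the time course, and 3 polarity scores higher at 15 min. Polarity called 2 members at 1 min and 0 at 5 min with over 10 reads, and 2 and 0 without the trend.

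Leaving out 1 library at a time gave 3 to 43 members lower with pretreatment, 0 to 1 at 1 min, 0 to 15 at 5 min, 0 to 4 at 15 min and 0 to 2 in the difference. It gave 2 to 29 summed proteins with pretreatment, 0 to 10 at 5 min and 0 to 3 at 15 min. For polarity it gave 0 to 46 with pretreatment, 0 to 6 at 1 min and 0 to 3 at 5 min. For copy ratios it gave 0 to 4 higher and 0 to 3 lower with pretreatment, 1 to 3 higher and 0 to 3 lower in the time course, and 0 to 1 higher and 1 to 2 lower in the difference.

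Changes near 0 turned sign. With pretreatment RPS26A was at -0.0030 without the filter and ranged from -0.36 (without 15 min replicate 1) to 0.41 with a library left out. RPS9A was at -0.0028 with the block and -0.0028 with library size scaling, and ranged from -0.57 (without 15 min replicate 1) to 0.53. At 1 min RPS2 ranged from -0.042 to 0.053 with a library left out, and RPS9B was at -0.041 with DESeq2, -0.021 with the block and from -0.21 to 0.17 with a library left out. The polarity change with pretreatment ranged from -0.43 to 0.18 for RPS10A and from -0.29 to 0.067 for RPS26A, above 0 only without starved replicate 2. In the time course polarity changes ranged from -0.0057 to 0.039 (RPS13) and -0.0033 to 0.057 (RPS6B) at 15 min, and from -0.014 to 0.068 (RPS13) at 5 min. The cause was not tested. Replicate 2 of the time course rests on 94585 to 135958 reads a library.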
